A study of Bos taurus with 6 samples.

Results

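The 10 genes described here, KLF2, KLF3, KLF4, KLF5, KLF6, KLF7, KLF9, KLF11, KLF13 and KLF15, encode Kruppel-like factors with known roles in the formation of fat cells. They were chosen by symbol for these roles, and all 10 were found among the 23475 genes of the expression table, which holds 17 KLF genes. The cells were bovine preadipocytes, the precursors of adipocytes, from subcutaneous fat of 3 calves. They were kept in high-glucose medium with fetal bovine serum, and no induction of differentiation is stated for the sequenced cells. The agomir group (3 libraries) received the bta-miR-484 agomir, a chemically modified mimic of this miRNA. The agomir NC group (3 libraries), called the controls, received a negative control agomir, and cells of both groups were harvested 48 h after the transfection. The study does not state if the 3 libraries of a group stem from separate calves or from parallel cultures, so each SD and p-value measures the spread between these libraries. Levels are given as FPKM, which corrects fragment numbers for the length of the gene's transcript and for the size of the library, and sequencing depth is unknown.

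Kruppel-like factors are zinc finger proteins that bind GC-rich and CACCC sequences in promoters, and different members activate or repress the same genes. In adipogenesis they act at successive steps of a cascade that leads from C/EBPβ and C/EBPδ to PPARγ and C/EBPα, the regulators of the mature fat cell. KLF4, KLF5, KLF6, KLF9, KLF13 and KLF15 are known as activators of this course, whereas KLF2, KLF3 and KLF7 are known to hold precursor cells back from it.

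The labels call the cells adipocytes, and 3 of 7 markers of mature adipocytes had a mean below 0.5 FPKM. Adiponectin (ADIPOQ) ranged from 0.0763 to 0.197 FPKM, and the genes of leptin (LEP) and of the lipid droplet protein CIDEC were below 0.5 FPKM in all 6 libraries. Of 7 adipocyte markers, 4 had a mean of at least 0.5 FPKM, and the lipase gene PNPLA2 had the highest mean over the 6 libraries. The 7 summed to 9.57, 9.20 and 10.95 FPKM with the agomir, against 11.01, 10.97 and 11.34 FPKM in the controls. All 3 agomir sums were thus below all 3 control sums, the nearest being 10.95 and 10.97 FPKM, and this difference was not tested. Of the 4 markers with a mean of at least 0.5 FPKM, 0 had groups that did not overlap, beside 17.2% of all genes tested. Their log2 fold change was negative for 3 and positive for 1. FABP4 had means of 1.90 FPKM with the agomir and 2.89 FPKM in the controls, and PLIN1 had 1.31 and 1.14 FPKM. Of 10 markers of preadipocytes and fibroblasts, 8 had a mean of at least 0.5 FPKM, and the 10 summed to between 17587 and 18743 FPKM, with COL3A1 the most abundant. PDGFRA had a mean of 165 FPKM in the agomir libraries and 167 FPKM in the control libraries. The preadipocyte marker DLK1 was listed at 0 in all 6 libraries, and CD34 lay between 0.383 and 0.783 FPKM. The fibroblast and preadipocyte genes other than DLK1 and CD34 were thus far above the adipocyte genes in level.

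KLF2 and KLF4 are also abundant in endothelial cells, so markers of other cell types were read beside them. Of 8 endothelial markers, 2 had a mean of at least 0.5 FPKM, and the 8 summed to between 3.93 and 4.83 FPKM, with VWF the most abundant. The endothelial genes PECAM1, CDH5, KDR, TIE1 and ESAM were below 0.5 FPKM in every library, and EMCN was at 0. Of 8 leukocyte markers, 2 reached a mean of 0.5 FPKM, with a sum of 7.09 to 8.39 FPKM led by CD14, PTPRC below 0.5 FPKM, and C1QA and C1QB at 0. Of 7 mural cell markers, 3 reached it, with a sum of 204 to 229 FPKM led by ACTA2, a gene that cultured fibroblasts also express, and RGS5, MYH11 and MCAM below 0.5 FPKM. None of 4 myogenic markers reached it, with a sum of 0.200 to 0.479 FPKM led by DES, and MYOD1 and MYOG at 0. None of 6 epithelial markers reached it, with a sum of 0.145 to 0.379 FPKM, and KRT5, KRT14 and KRT18 at 0. EPCAM had the highest mean of these over the libraries but was at 0 in agomir replicate 1. In bulk RNA, fewer cells of a type and less RNA per cell cannot be told apart.

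The 10 genes spanned a 90.1-fold range of mean level over the 6 libraries. KLF4 was highest at 65.9 ± 3.12 FPKM (SD, n = 6), or 39.7% of the summed FPKM of the 10 genes. KLF6 followed at 32.3 ± 2.73 FPKM (n = 6), or 19.5% of the sum. Both stood apart from each other and from the other 8 genes in every library. A middle set followed, with KLF2 at 17.2 ± 0.934 FPKM, KLF9 at 17.1 ± 1.89 FPKM and KLF3 at 15.0 ± 1.56 FPKM, where each gene's range over the libraries overlapped that of its neighbour. KLF7 lay below them at 10.1 ± 0.848 FPKM, and its range met none of the others. KLF13 at 3.29 ± 0.532 FPKM and KLF5 at 2.997 ± 0.525 FPKM overlapped each other. KLF11 at 1.29 ± 0.154 FPKM and KLF15 at 0.731 ± 0.239 FPKM were lowest. Their ranges overlapped over all 6 libraries but were separate within each group. Among all genes tested, KLF4 lay at the 93.2 percentile of mean level and KLF15 at the 4.48 percentile.

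**Figure D1:**
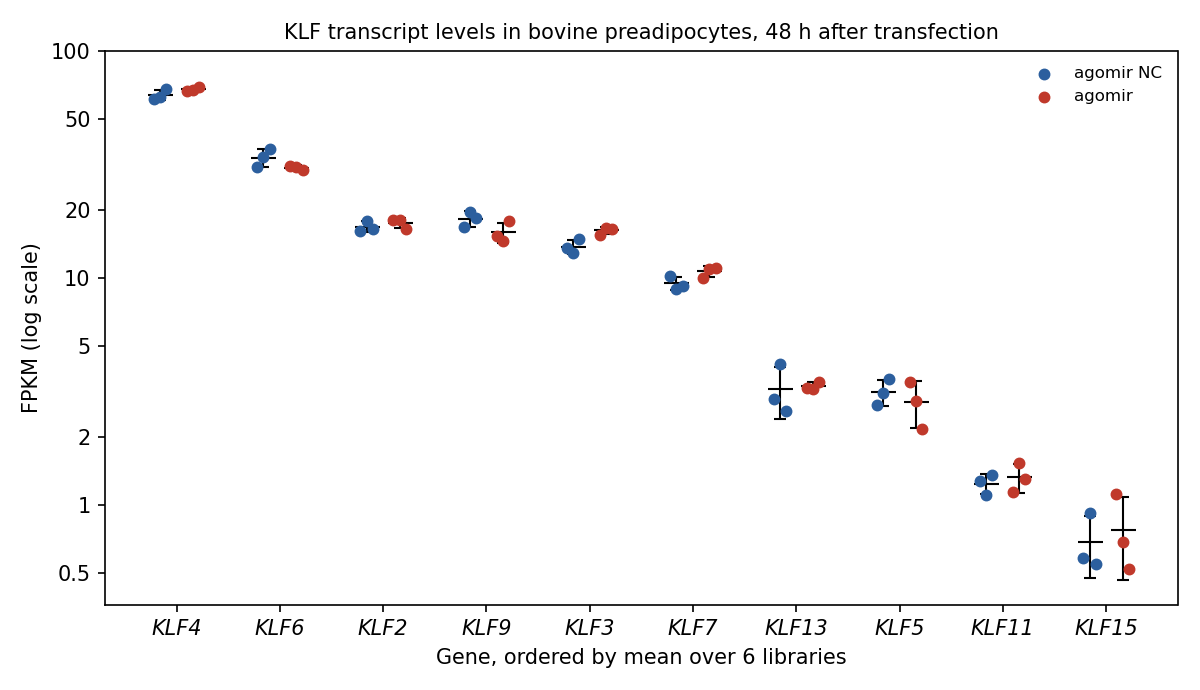
FPKM (log scale) of the 10 KLF genes, ordered by their mean over 6 libraries, with 1 point per library, agomir NC in blue and agomir in red, and black bars for the mean and SD of each group. KLF4 lay between 61.5 and 69.2 FPKM, KLF15 lay between 0.523 and 1.12 FPKM, and the agomir points lay above all control points for KLF3.

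The order was alike in both groups except in the middle set. With the agomir, KLF2 (17.5 FPKM), KLF3 (16.2 FPKM) and KLF9 (15.9 FPKM) followed each other with overlapping ranges. With the agomir NC, KLF9 (18.2 FPKM) and KLF2 (16.8 FPKM) overlapped, and KLF3 (13.7 FPKM) lay below both. Whether this order differed between the groups was not tested.

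All 10 genes passed the filter of a mean of at least 0.5 FPKM, so all 10 were among the 12422 genes tested with limma. After Benjamini-Hochberg adjustment over the 12422 genes, 0 of the 10 were under 0.05, beside 1 of all genes tested (0.00805%). Under an unadjusted limma p of 0.05 there were 3 of the 10, beside 1359 of all genes tested (10.9%). KLF3 and KLF7 were higher with the agomir at that threshold, that is 2 of 10 beside 6.63% of all genes. KLF9 was lower, that is 1 of 10 beside 4.31%. The agomir and control libraries did not overlap for 1 of the 10, KLF3, beside 17.2% of all genes. The count of 3 became 1, KLF3, without agomir replicate 2 or without control replicate 2, and 4 without control replicate 1, when KLF6 joined. It was 1, again KLF3, when the variance trend was left out of the model. With no filter, the TPM scale, array weights or the replicate block it was 2. It was also 2 without agomir replicate 1 or 3 or control replicate 3. Under median-ratio scaling or quantile normalization the count stayed at 3, with KLF6 in place of KLF7.

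The log2 fold change of agomir over agomir NC was positive for 7 of the 10 genes and negative for 3, KLF5, KLF6 and KLF9. No sign turned when the libraries were rescaled to TPM, by median ratios or by quantiles. The median was 0.06, beside 0.01 over all genes tested, and it was 0.03 without control replicate 1 or 3. The 10 genes summed to 166, 167 and 168 FPKM with the agomir and to 156, 165 and 172 FPKM with the agomir NC. The sums of the agomir libraries lay inside the range of the control libraries (exact permutation p = 0.7, two-sided). For a single gene with 3 libraries in each group, the 20 labelings allow no exact p below 0.1.

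**Figure D2:**
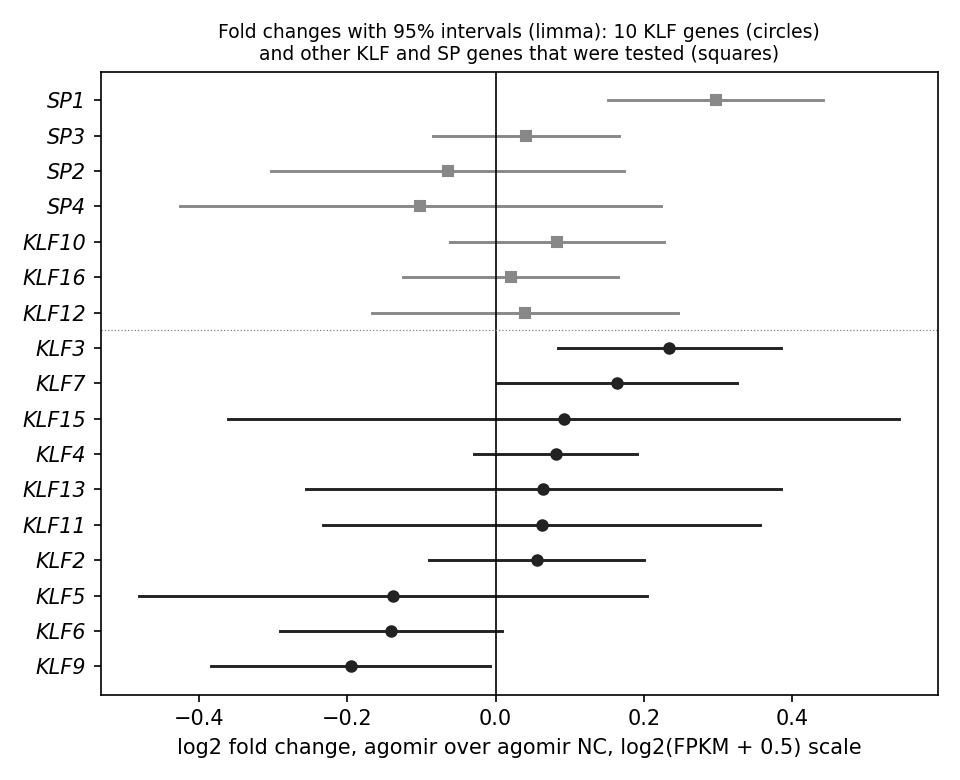
Log2 fold change of agomir over agomir NC with its 95% interval from limma, on the x axis, for the 10 KLF genes (circles) and the 7 other KLF and SP genes that were tested (squares). The interval lay above 0 for KLF3 (0.08 to 0.38), KLF7 (0.00216 to 0.326) and SP1 (0.15 to 0.44) and below 0 for KLF9 (-0.384 to -0.00743), and the widest interval among the 10 was that of KLF15 (-0.36 to 0.55).

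KLF3 is a repressor that recruits the corepressor CtBP and is known to act on the CEBPA promoter in preadipocytes. It measured 15.5, 16.6 and 16.5 FPKM with the agomir, against 13.5, 12.8 and 14.8 FPKM in the controls. All 3 agomir libraries were above all 3 control libraries, with agomir replicate 1 and control replicate 3 the nearest to each other. Mean levels of 16.2 ± 0.650 FPKM with the agomir, against 13.7 ± 0.990 FPKM in the controls (SD, n = 3), gave a ratio of 1.18. On the log2 scale KLF3 was 0.23 higher with the agomir, with an SE of 0.0670 and a 95% interval of 0.08 to 0.38, a limma adjusted p = 0.310 and the smallest exact permutation p of 0.1. KLF3 was under an unadjusted p of 0.05 in each of the 16 alternative settings, and its adjusted p in them ran from 0.245 to 0.564.

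KLF7, known to inhibit adipocyte differentiation when overexpressed, measured 10.1, 10.9 and 11.1 FPKM with the agomir, against 10.2, 8.99 and 9.27 FPKM in the controls. The groups overlapped through agomir replicate 1, which lay just below control replicate 1, while the other 4 libraries were apart by group. The means were 10.7 ± 0.559 and 9.49 ± 0.638 FPKM (n = 3 each). KLF7 had a log2 fold change of 0.16 with an SE of 0.0723, a limma adjusted p = 0.448 and an exact permutation p of 0.2. Of the 16 alternative settings, 8 kept KLF7 under an unadjusted p of 0.05. It was not under it with no variance trend, the replicate block, quantile normalization or median-ratio scaling, or without agomir replicate 2 or 3 or control replicate 2 or 3.

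KLF2, which represses the PPARG promoter and keeps cells in the precursor state, measured 18.0, 18.1 and 16.4 FPKM with the agomir, against 16.1, 17.9 and 16.5 FPKM in the controls. The groups overlapped, and agomir replicate 3 and control replicates 1 and 3 were low together. KLF2 had a log2 fold change of 0.06 with a 95% interval of -0.09 to 0.20 (limma adjusted p = 0.798, exact permutation p = 0.3). Leaving out 1 library moved it from 0.0242, without control replicate 1, to 0.1004, without agomir replicate 3, and 5 of the 6 libraries moved it by over 1.5 times when left out, all but control replicate 3. It was 0.0325 with quantile normalization.

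KLF4 acts early, on the CEBPB promoter together with EGR2 (Krox20). It measured 66.4, 67.5 and 69.2 FPKM with the agomir, against 61.5, 62.6 and 68.0 FPKM in the controls. Control replicates 1 and 2 were the low libraries, and control replicate 3 lay within the agomir range. KLF4 had a log2 fold change of 0.08 with a 95% interval of -0.03 to 0.19 (limma adjusted p = 0.590, exact permutation p = 0.3). Without control replicate 1 it was 0.0533, and without control replicate 3 it was 0.125 and KLF4 was under an unadjusted p of 0.05. KLF4 took 40.1%, 40.5% and 41.1% of the summed FPKM of the 10 genes with the agomir and 39.3%, 37.8% and 39.5% with the agomir NC.

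EGR2, the partner of KLF4, had a mean of 2.51 FPKM with the agomir, against 2.55 FPKM in the controls, and its log2 fold change of -0.02 turned positive without agomir replicate 3 or control replicate 2. CEBPB, the gene both act on, had means of 117 and 119.5 FPKM, and its log2 fold change of -0.03 turned positive without control replicate 2. CEBPD had means of 172 and 177 FPKM with a log2 fold change of -0.04, which ran from -0.0682 without control replicate 1 to -0.0209 without agomir replicate 2 and was -0.0165 with quantile normalization and -0.0252 on the TPM scale. Both C/EBP genes were thus above KLF4 in level in each library. Their limma adjusted p-values were 0.856 for CEBPB and 0.768 for CEBPD. Under the alternative settings the lowest were 0.556 and 0.604 in turn, both without control replicate 1.

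KLF5 is induced by C/EBPβ and C/EBPδ and acts on the PPARG promoter. It measured 3.49, 2.89 and 2.15 FPKM with the agomir, against 2.75, 3.12 and 3.58 FPKM in the controls. The groups overlapped over most of their range, and the lowest library was agomir replicate 3. KLF5 had a log2 fold change of -0.14 with a 95% interval of -0.48 to 0.20 (limma adjusted p = 0.783, exact permutation p = 0.6), and it turned to 0.02 without agomir replicate 3. It was -0.276 without agomir replicate 1, -0.2195 without control replicate 1 and -0.0556 without control replicate 3.

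KLF6, known to repress DLK1, measured 31.3, 30.8 and 29.9 FPKM with the agomir, against 30.7, 34.1 and 37.0 FPKM in the controls. The agomir libraries lay close together, control replicate 1 lay among them, and control replicates 2 and 3 were high. KLF6 had a log2 fold change of -0.14 with a 95% interval of -0.29 to 0.01 (limma adjusted p = 0.482, exact permutation p = 0.3). KLF6 was under an unadjusted p of 0.05 in 3 of the 16 alternative settings, which were median-ratio scaling, quantile normalization and the fit without control replicate 1. Without control replicate 3 its log2 fold change was -0.0768.

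KLF9 is induced by glucocorticoids and is known to act on the PPARG promoter with C/EBPα. It measured 15.3, 14.6 and 17.8 FPKM with the agomir, against 16.8, 19.6 and 18.3 FPKM in the controls. Agomir replicates 1 and 2 were lower than all 3 control libraries, and agomir replicate 3 lay above control replicate 1. The means were 15.9 ± 1.66 and 18.2 ± 1.42 FPKM (n = 3 each). KLF9 had a log2 fold change of -0.20 with an SE of 0.0840, a limma adjusted p = 0.440 and an exact permutation p of 0.2. Of the 16 alternative settings, 8 kept KLF9 under an unadjusted p of 0.05. It was not under it with no filter, the TPM scale, no variance trend or array weights, or without agomir replicate 1 or 2 or control replicate 2 or 3. In the RefSeq table of a later build, ARS-UCD2.0, the span of KLF9 overlaps that of SMC5, a gene of chromosome maintenance, and how the authors' values divide fragments there was not tested. SMC5 had means of 10.8 FPKM in both groups and a log2 fold change of 0.00, whose sign was negative under 4 of the 16 alternative settings.

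KLF11, a factor inducible by TGF-β, measured 1.14, 1.53 and 1.31 FPKM with the agomir, against 1.27, 1.11 and 1.35 FPKM in the controls. KLF13, an activator of PPARG, measured 3.29, 3.25 and 3.49 FPKM with the agomir, against 2.94, 4.16 and 2.59 FPKM in the controls. KLF15, which acts on PPARG and on the glucose transporter gene SLC2A4, measured 1.12, 0.686 and 0.523 FPKM with the agomir, against 0.586, 0.924 and 0.550 FPKM in the controls. The groups overlapped for each of these 3 low genes. The log2 fold changes were 0.06 for KLF11, 0.06 for KLF13 and 0.09 for KLF15, and each turned negative without 1 library, agomir replicate 2, control replicate 3 and agomir replicate 1 in turn. With 1 library left out, they ran from -0.0172 to 0.137 for KLF11, from -0.0601 to 0.237 for KLF13 and from -0.0930 to 0.238 for KLF15. Their limma adjusted p-values were 0.904, 0.910 and 0.909.

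The spread between libraries differed among the 10 genes. KLF4 had coefficients of variation of 2.03% with the agomir and 5.46% with the agomir NC, whereas KLF15 had 39.6% and 30.1%. KLF13 had 3.78% with the agomir and 25.6% with the agomir NC, where replicate 2 was high. The 95% intervals came from a model with a variance trend and were narrowest for KLF4 and widest for KLF15. They did not strictly follow level, as KLF9 had an SE of 0.0840, against 0.0723 for the less abundant KLF7. For KLF15 a log2 fold change anywhere between -0.36 and 0.55 lay within its interval. Whether the spread differed between the groups was not tested.

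Of the 17 other genes of the KLF and SP family that were looked for, 16 had a row in the table and 7 passed the filter. Under an unadjusted p of 0.05, 1 was higher with the agomir and 0 were lower, 0 were under an adjusted p of 0.05 with limma, and the median log2 fold change of the 7 was 0.04. Of all genes tested, 6.63% were higher and 4.31% lower at the unadjusted threshold. The one was SP1, a widely expressed activator that binds the same GC-rich sequences, with 10.1, 9.53 and 10.2 FPKM with the agomir, against 7.89, 7.85 and 8.27 FPKM in the controls. Its groups did not overlap, and each lay within a narrow range. SP1 had a log2 fold change of 0.30 with an SE of 0.0646 (limma adjusted p = 0.218, exact permutation p = 0.1). KLF10, the paralogue of KLF11, had means of 48.7 ± 2.97 and 46.0 ± 3.39 FPKM and a log2 fold change of 0.08. That value was 0.0349 without agomir replicate 2, 0.0369 without control replicate 2 and 0.140 without control replicate 3. KLF10 was the second most abundant KLF gene, between KLF4 and KLF6. KLF16 had means of 13.0 and 12.8 FPKM with a log2 fold change of 0.02, which became -0.01 under quantile normalization. With 1 library left out it ran from -0.0249 without agomir replicate 3 to 0.0679 without agomir replicate 2. KLF12 had means of 4.69 and 4.53 FPKM with a log2 fold change of 0.04, which ran from -0.0123 without agomir replicate 2 to 0.115 without agomir replicate 3. KLF1, KLF8, KLF14 and KLF17 were below the filter.

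Of 12 cofactors and ubiquitin ligases of KLF proteins, all 12 passed the filter, and with limma 0 were under an unadjusted p of 0.05, beside 10.9% of all genes tested, and 0 under an adjusted p of 0.05. Their log2 fold changes had a median of 0.04 and were positive for 7 and negative for 5. The genes named here were chosen after their values were seen. FHL3 had means of 26.3 FPKM with the agomir and 28.5 FPKM in the controls, with a log2 fold change of -0.11 (limma adjusted p = 0.527). CTBP1, the corepressor gene of KLF3, had means of 36.6 and 36.4 FPKM, and CTBP2 had 36.5 and 37.3 FPKM. EP300, a coactivator gene, had 15.3 ± 0.311 FPKM with the agomir, against 14.1 ± 0.993 FPKM in the controls, with groups that did not overlap and a log2 fold change of 0.12 (limma adjusted p = 0.551), which was 0.0613 without control replicate 3. WWP1, whose ligase degrades KLF2 and KLF5, measured 5.05, 6.94 and 6.92 FPKM with the agomir, against 5.33, 4.96 and 5.25 FPKM in the controls, where agomir replicates 2 and 3 were high. Its log2 fold change was 0.25 (limma adjusted p = 0.477), and it was 0.387 without agomir replicate 1. WWP1 was under an unadjusted p of 0.05 in 2 of the 16 alternative settings, without agomir replicate 1 and on the TPM scale.

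Of 21 genes of the adipogenic cascade in the table, 16 passed the filter. Under an unadjusted p of 0.05, 1 was higher with the agomir and 1 lower, 0 were under an adjusted p of 0.05 with limma, and the median log2 fold change was 0.03. The 2 of 16 stand beside 10.9% of all genes tested, in both directions together. PPARG, the regulator on which several of the 10 factors act, measured 3.99, 3.69 and 3.91 FPKM with the agomir, against 3.39, 3.34 and 2.96 FPKM in the controls. All 3 agomir libraries were above all 3 control libraries. PPARG had a log2 fold change of 0.23 with an SE of 0.0904 (limma adjusted p = 0.407, exact permutation p = 0.1). It was not under an unadjusted p of 0.05 without agomir replicate 1 or 3 or control replicate 3. FABP4, a fatty acid binding protein of adipocytes, measured 1.82, 2.33 and 1.54 FPKM with the agomir, against 3.57, 2.21 and 2.88 FPKM in the controls. Control replicate 2 lay within the agomir range. FABP4 had a log2 fold change of -0.49 with an SE of 0.169 (limma adjusted p = 0.363, exact permutation p = 0.2). It was not under an unadjusted p of 0.05 without agomir replicate 3 or control replicate 1. CEBPA was scarce, at 0.632 ± 0.212 and 0.438 ± 0.256 FPKM, with a log2 fold change of 0.29 (limma adjusted p = 0.681). That value was 0.103 without control replicate 3, and it was 0.513 with a pseudocount of 0.1, 0.189 with a pseudocount of 1 and 0.448 on the TPM scale, where the same pseudocount is smaller beside the values. CEBPA did not pass the filter without agomir replicate 3, without control replicate 1 or at 1 FPKM, so it has values under 13 of the 16 alternative settings. LPL, the lipoprotein lipase gene, had means of 3.83 and 3.64 FPKM with a log2 fold change of 0.06, which was -0.02 without agomir replicate 2.

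Of 15 genes reported as targets of these factors, 12 passed the filter, and the median log2 fold change of the 12 was 0.03. Under an unadjusted p of 0.05, 3 were higher with the agomir and 0 lower, and 0 were under an adjusted p of 0.05 with limma. The 3 of 12 that were higher, PPARG, CCND1 and SMAD7, stand beside 6.63% of all genes tested, and the 0 beside 4.31%. PPARG was also the gene counted as higher in the adipogenic cascade, so it enters both lists. CCND1, the cyclin D1 gene, measured 32.9, 38.6 and 34.8 FPKM with the agomir, against 29.0, 30.1 and 25.7 FPKM in the controls. Its groups did not overlap, and the log2 fold change was 0.32 with an SE of 0.0750 (limma adjusted p = 0.252, exact permutation p = 0.1). SMAD7, an inhibitor of TGF-β signalling, had means of 7.08 ± 0.539 and 6.08 ± 0.257 FPKM and a log2 fold change of 0.20 (limma adjusted p = 0.403), and it was not under an unadjusted p of 0.05 without agomir replicate 2 or control replicate 3. DLK1, the target of KLF6, was listed at 0 in all 6 libraries, and SLC2A4, the target of KLF15, lay at or below 0.108 FPKM in every library.

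KLF3 had the smallest limma p of the 10, and the genes most like it over the 6 libraries were sought among 7809 genes with a symbol and a mean of at least 5 FPKM. The measure was the root mean square difference of log2 values centred per gene. The nearest were BRCC3 (0.0228), ZDHHC12 (0.0241) and MRPS18B (0.0282), where the root mean square of KLF3 about its own mean was 0.135. BRCC3 measured 10.1, 10.5 and 10.6 FPKM with the agomir, against 8.50, 8.33 and 9.63 FPKM in the controls. As for KLF3, control replicate 2 was the lowest library and control replicate 3 the highest of its group. BRCC3 was picked for its likeness over these libraries, so the shared order is no separate result.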

How the data were processed

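FPKM values as deposited by the authors were used, 1 per gene and library. For their making, the submitters' processing notes name fastp, HISAT2, StringTie and the build ARS-UCD1.2. Read depth is unknown, so no counting error is given. A gene was tested if it averaged 0.5 FPKM or more over all 6 libraries. A pseudocount of 0.5 was added before the log2 step. Testing used limma 3.58.1 in R 4.3.3 with a variance trend, two-sided, and the Benjamini-Hochberg adjustment ran over every gene tested. An exact permutation test of mean FPKM was run beside it for single genes. The model was tested on simulated data.

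The 10 genes and all lists were chosen with earlier results of these data known. All 10 genes are named. Of each list (other KLF and SP genes, cofactors and ligases, adipogenic cascade, reported targets, glucocorticoid receptor and its targets, immediate early genes), up to 4 genes under an unadjusted p of 0.05 are named, smallest p first. Also named are PPARG, CEBPA, CEBPB, CEBPD, FABP4, LPL, ADIPOQ, EGR2, KLF10, KLF12, KLF16 and SP1, and the 3 genes most like the one of the 10 with the smallest p. Any other gene given with values outside the marker lists was chosen after its values were seen. Alternatives tried were array weights, a replicate block, a model without the variance trend, quantile normalization, scaling by median ratios, rescaling to TPM (an equal sum per library, larger than the FPKM sums, so that the unchanged pseudocount weighs less), pseudocounts of 0.1 or 1, a filter at 1 FPKM or none, and leaving out each library in turn.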

Additional observations from a re-analysis of the deposited data

How the results depend on the processing

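Of the 159 log2 fold changes of the 10 KLF genes under the 16 alternative settings, 155 kept their sign and stayed above an adjusted limma p of 0.05, and the other 4 turned sign. The count of KLF genes under an adjusted p of 0.05 was 0 in all 16. The count under an unadjusted p of 0.05 was 1 without the variance trend, and 1 to 4 with 1 library left out. The replicate block gave 2, KLF3 and KLF9. Whether libraries with the same replicate number share an origin is not stated. The correlations of their paired deviations were -0.0506, 0.0532 and 0.0387. The median log2 fold change was 0.0265 to 0.0827 with 1 library left out. Under quantile normalization, KLF16 was -0.0116, SMC5 -0.0149 and DCN 0 by construction (1 rank in all 6 libraries), and under median-ratio scaling SMC5 was -0.0100. With 1 library left out, the log2 fold changes ran from -0.276 to 0.0183 for KLF5, -0.0172 to 0.137 for KLF11, -0.0123 to 0.115 for KLF12, -0.0601 to 0.237 for KLF13, -0.0930 to 0.238 for KLF15, -0.0249 to 0.0679 for KLF16, -0.0799 to 0.0140 for CEBPB, -0.113 to 0.0846 for EGR2, -0.0234 to 0.116 for LPL and -0.0289 to 0.0236 for SMC5. KLF15 was not tested with a filter of 1 FPKM, and CEBPA was tested in 13 settings. The cause of the other shifts was not tested.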

Other observations

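Several Kruppel-like factors respond to glucocorticoids, so the receptor and its targets were read beside them. Of 8 such genes, 5 passed the filter, with a median log2 fold change of 0.02, and 0 were under an adjusted p of 0.05 with limma. Under an unadjusted p of 0.05, NR3C1, the receptor gene, was higher with the agomir and DUSP1, a phosphatase gene, was lower, that is 2 of 5 beside 10.9% of all genes tested. NR3C1 measured 37.7, 36.8 and 36.9 FPKM with the agomir, against 35.0, 35.1 and 33.7 FPKM in the controls, giving a log2 fold change of 0.10 (limma adjusted p = 0.447). DUSP1 measured 48.3, 48.8 and 47.0 FPKM with the agomir, against 54.2, 51.5 and 53.8 FPKM in the controls, giving a log2 fold change of -0.14 (limma adjusted p = 0.321). The groups did not overlap for either gene. NR3C1 was under an unadjusted p of 0.05 in 6 of the 16 alternative settings and DUSP1 in 16. NR3C1 was not under it when any 1 of the 6 libraries was left out, nor with the replicate block, no variance trend, quantile normalization or median-ratio scaling.

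KLF2, KLF4, KLF6 and KLF10 are serum-responsive, as are the immediate early genes. Of 11 immediate early genes, 10 passed the filter, with a median log2 fold change of 0.00. Under an unadjusted p of 0.05, 3 were higher with the agomir and 2 lower, and 0 were under an adjusted p of 0.05 with limma. These 5 of 10 stand beside 10.9% of all genes tested, of which 6.63% were higher and 4.31% lower. JUN measured 19.1, 20.04 and 18.4 FPKM with the agomir, against 16.8, 15.0 and 15.9 FPKM in the controls, giving a log2 fold change of 0.27 (limma adjusted p = 0.248). MYC had a log2 fold change of 0.16 (limma adjusted p = 0.381). FOSL1, chosen after its values were seen, had 0.11 (limma adjusted p = 0.442). The groups did not overlap for these 3 genes. Of the 16 alternative settings, 16 kept JUN under an unadjusted p of 0.05, 13 kept MYC and 8 kept FOSL1. MYC was not under it without agomir replicate 2 or 3 or control replicate 1, and FOSL1 was not without agomir replicate 1 or 3 or any 1 of the 3 control libraries, nor with median-ratio scaling, no variance trend or the replicate block. FOS measured 6.396, 7.46 and 6.71 FPKM with the agomir, against 7.76, 8.50 and 7.78 FPKM in the controls, giving a log2 fold change of -0.21 with groups that did not overlap (limma adjusted p = 0.393). IER3 had a log2 fold change of -0.21, and its groups overlapped (limma adjusted p = 0.399). FOS was under an unadjusted p of 0.05 in 13 of the 16 alternative settings, not without agomir replicate 1 or 3 or control replicate 2. IER3 was under it in 11, not with no filter or no variance trend, nor without agomir replicate 3, where it was -0.122, or control replicate 2 or 3. Of the preadipocyte and fibroblast markers, 1 of the 8 tested was under an unadjusted p of 0.05 (beside 10.9% of all genes), DCN, with means of 2863 ± 31.3 FPKM with the agomir, against 3114 ± 129 FPKM in the controls and a log2 fold change of -0.12 (limma adjusted p = 0.376). DCN was under it in 11 of 15 alternative settings, not with no filter or no variance trend, nor without agomir replicate 1 or 3. Quantile normalization gives no test of DCN, because the gene ranked 7 in all 6 libraries and so receives 1 value in each.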
